A study of Mus musculus with 8 samples.

Results

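The M1 response of mouse bone marrow-derived macrophages was compared between wild-type (WT) and iNOS-/- cells, gene by gene, as the difference of 2 differences: the change from unstimulated to M1 in iNOS-/- cells minus the same change in WT cells. All 8 of 8 arrays in the series enter this contrast. Bone marrow came from female mice aged 8 weeks, with the strain given as C57bl/6J. It was cultured with GM-CSF at 10 ng/ml for 7 days, a culture that both genotypes and both conditions share. M1 cells then received LPS at 200 ng/ml together with IFN-γ at 10 ng/ml for 6 h, and unstimulated cells did not. Each genotype was thus measured unstimulated and as M1 cells, and each of these 4 groups had 2 Illumina bead arrays. The iNOS-/- mice carry a targeted Nos2 allele in every cell. The methods of the study list them as a mutant line with its own strain name, apart from C57bl/6J. Differences between the lines other than the Nos2 allele were not tested. Nothing in the labels says that the paired arrays of a group stand for separate mice or cultures. The p-values below therefore measure the spread between arrays, and that spread may be technical.

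Macrophages meet bacteria through pattern recognition receptors. LPS engages Toll-like receptor 4 and turns on NF-kB and the interferon regulatory factors, while IFN-γ acts through its own receptor and Jak kinases. Together they drive the M1 state, in which cytokines, chemokines, interferon-stimulated genes and antigen presentation genes are raised and cell division slows. M1 cells also induce Nos2, which encodes iNOS, the enzyme that makes nitric oxide from arginine. A gene can differ in its M1 response between genotypes because it moves in opposite directions, because it moves further in one of them, or because it moves in one alone.

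The values are log2 intensities after rank-invariant scaling, so a difference of 1 is a 2-fold change. A probe was tested if 2 or more of the 8 arrays showed it above background, at a detection p-value under 0.05, and a difference was called at an adjusted p under 0.05 from limma with Benjamini-Hochberg adjustment. That left 13868 probes for 10163 gene symbols, of which 9687 probes were detected on all 8 arrays. Arrays of the same group differed by a median of 0.161 to 0.188 per probe. Among arrays of different groups, the closest were WT M1 and iNOS-/- unstimulated, 0.344 to 0.366 apart, closer than the unstimulated arrays of the 2 genotypes, 0.484 to 0.491 apart. Whether every array carries its right label was not tested, and every opposite response below rests on the labels. The Nos2 probe, which starts at position 3546 of the transcript, was undetected on all 4 unstimulated arrays and rose in M1 cells of both labels, at least 26.9-fold in WT and at least 39.4-fold on the arrays labelled iNOS-/-. It does not check the genotype labels, because the deleted part of the gene is not given in the sources used here. With both unstimulated groups undetected, the difference of response for Nos2 was not well defined. It was -1.01 and not called (adjusted p = 0.1279, limma), and 0.55 with undetected groups set at the lowest detected level. Over 17 alternative settings it ran from -1.45 to 0.37 and was called in 1. Markers of macrophages were present in every group: Lyz2, Cd68, Csf1r and Emr1, an adhesion receptor of mature macrophages, were detected on all 8 arrays.

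The M1 response differed between genotypes for 5815 probes, 41.9% of those tested. The response was more positive in iNOS-/- cells for 2883 of them and more negative for 2932. Counted by gene, with one probe each, 2191 genes (21.6%) went to the more positive side and 2238 genes (22%) to the more negative side, and these shares are the background for the gene groups below. The iNOS-/- cells had the larger responses: M1 raised 3636 and lowered 3298 probes in iNOS-/- cells against 2804 and 2063 in WT cells, and the median absolute change was 0.702 against 0.494. The difference of responses had a median absolute size of 0.804. It reached 2-fold for 1763 called probes on the positive side and 2110 on the negative side, and 16-fold for 75 and 254. Among probes detected on all 8 arrays these counts were 1466 and 1444 at 2-fold and 6 and 39 at 16-fold.

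By the signs of the 2 responses, the called probes fell into distinct kinds. A first group of 648 probes rose in WT and fell in iNOS-/- cells, and a further 463 did the opposite, so that 1111 probes moved in opposite directions. Both genotypes moved the same way but by unequal amounts for 993 probes. Among these, 546 rose further and 157 rose less in iNOS-/- cells, while 236 fell more deeply and 54 fell less. In 3494 probes only one response was called, 2471 in iNOS-/- cells and 1023 in WT cells, and for 217 neither was. The count of opposite responses depended on single arrays: the total was 670 or 677 without WT unstimulated replicate 1 or 2, and 726 or 728 without WT M1 replicate 1 or 2. The 648 became 431 or 422 without WT M1 replicate 1 or 2. The 463 became 233 or 232 without WT unstimulated replicate 1 or 2, 295 or 306 without WT M1 replicate 1 or 2, and 295 without iNOS-/- unstimulated replicate 1. Over genes, 511 (5.03%) rose in WT and fell in iNOS-/-, and 363 (3.57%) fell in WT and rose in iNOS-/-.

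**Figure D1:**
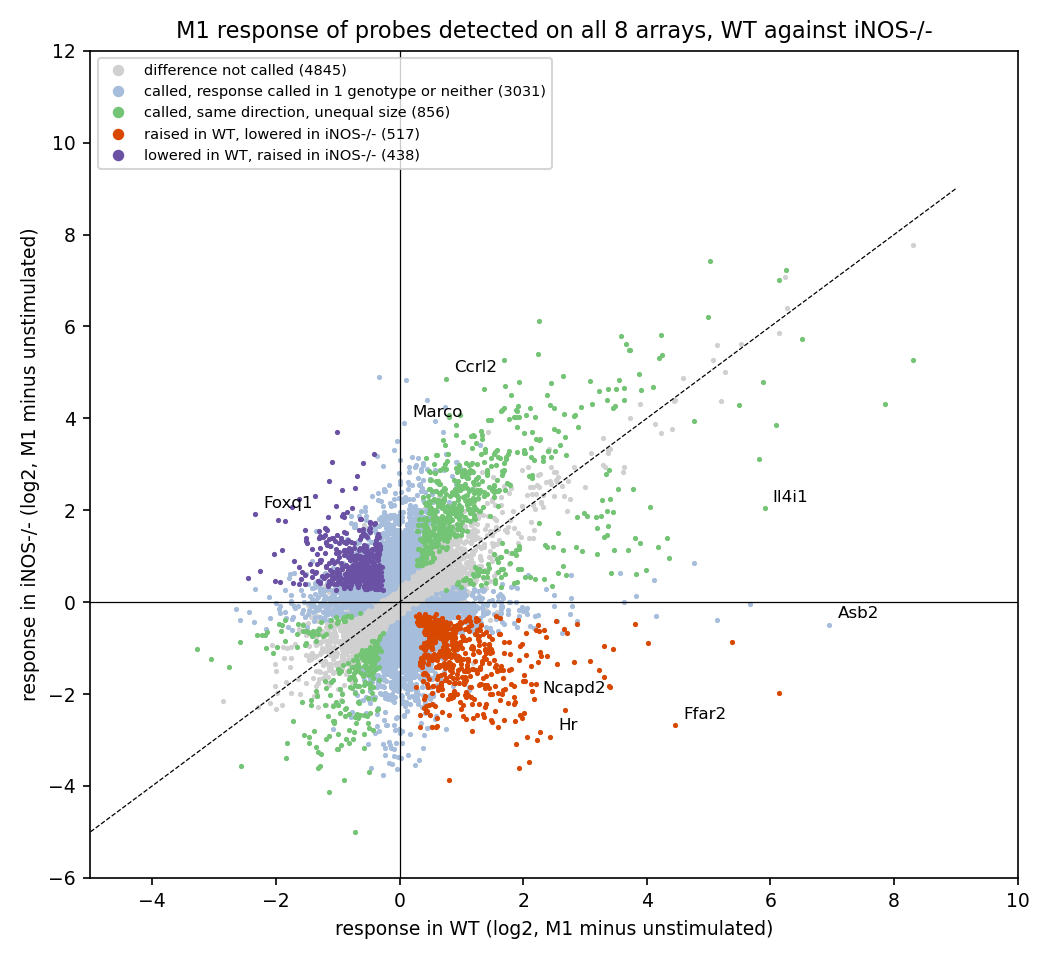
M1 response in WT (horizontal axis) against M1 response in iNOS-/- (vertical axis), both as log2 of M1 minus unstimulated, for the 9687 probes detected on all 8 arrays. Each point is 1 probe and its colour gives its kind, and equal responses lie on the dashed line. The lower right part of the plane holds 517 probes that rose in WT and fell in iNOS-/-, and the upper left holds 438 that did the reverse.

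The difference of responses is also the genotype gap after stimulation minus the gap before it. For 2582 called probes (44.4%) a gap between genotypes was called in M1 cells and not in unstimulated cells. For 1030 (17.7%) it was called in unstimulated cells and not in M1 cells. In 1273 (21.9%) it was called in both conditions with the sign turned, and in 676 (11.6%) in both with the same sign. The 1273 became 767 or 782 without WT unstimulated replicate 1 or 2, and 705 or 751 without iNOS-/- unstimulated replicate 1 or 2. The probes with opposite responses were mostly of the turned kind, 461 of 648 and 287 of 463. Probes that responded in iNOS-/- cells alone mostly had their gap in M1 cells alone (1690 of 2471). For those that responded in WT alone it lay most often in unstimulated cells alone (563 of 1023). The kinds and the gaps come from the same arrays, so these links are partly built into the contrast.

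Among genes that rose in WT and fell in iNOS-/- cells, the 6 that moved furthest both ways (by the lesser of their 2 absolute responses) included Ffar2, a receptor for short-chain fatty acids. Its log2 intensity was 3.74 and 3.61 on the WT unstimulated arrays, 8.02 and 8.23 on the WT M1 arrays, 9.39 and 9.41 on the iNOS-/- unstimulated arrays, and 6.72 and 6.74 on the iNOS-/- M1 arrays. The WT unstimulated arrays were the lowest and the iNOS-/- unstimulated arrays the highest, with no overlap between any groups. Ffar2 thus rose 21.8-fold in WT and fell 6.37-fold in iNOS-/-, a difference of -7.12 with a standard error of 0.15 (adjusted p = 0.0001112, limma). Hr, a nuclear corepressor with histone demethylase activity, measured 6.56 and 6.54 in WT unstimulated, 8.91 and 9.05 in WT M1, 9.34 and 9.29 in iNOS-/- unstimulated and 6.43 and 6.35 in iNOS-/- M1 cells. Both iNOS-/- M1 arrays were the lowest for Hr and both iNOS-/- unstimulated arrays the highest, and the difference was -5.36 ± 0.13 (standard error, adjusted p = 0.0001137). Ncapd2, a subunit of the condensin complex that compacts mitotic chromosomes, read 5.31 and 5.30, then 7.58 and 7.37, in WT, and 7.23 and 7.65, then 5.19 and 5.48, in iNOS-/- cells. Here WT M1 and iNOS-/- unstimulated arrays overlapped at the high level, WT unstimulated and iNOS-/- M1 arrays overlapped at the low level, and the difference was -4.27 ± 0.26 (adjusted p = 0.0004435).

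The other 3 were Epb4.1l3 (now Epb41l3), a linker of membrane proteins to the cytoskeleton, Chn2, a GTPase-activating protein for Rac, and Bcas1, first named from a region amplified in breast cancer. They rose 6.39-fold, 4.68-fold and 4.16-fold in WT and fell 5.09-fold, 8.01-fold and 7.60-fold in iNOS-/-, with differences of -5.02, -5.23 and -4.98. For all 6 genes unstimulated iNOS-/- cells lay above unstimulated WT cells, by 2.14 (Ncapd2) to 5.72 (Ffar2). After M1 stimulation the order turned, by -1.40 (Ffar2) to -2.66 (Chn2). The genes were chosen for opposite responses, so this turn is partly built into the choice. Over the 517 probes of this kind detected on all arrays, the median log2 intensity was 6.22 in WT unstimulated, 7.33 in WT M1, 7.37 in iNOS-/- unstimulated and 6.12 in iNOS-/- M1 cells.

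**Figure D2:**
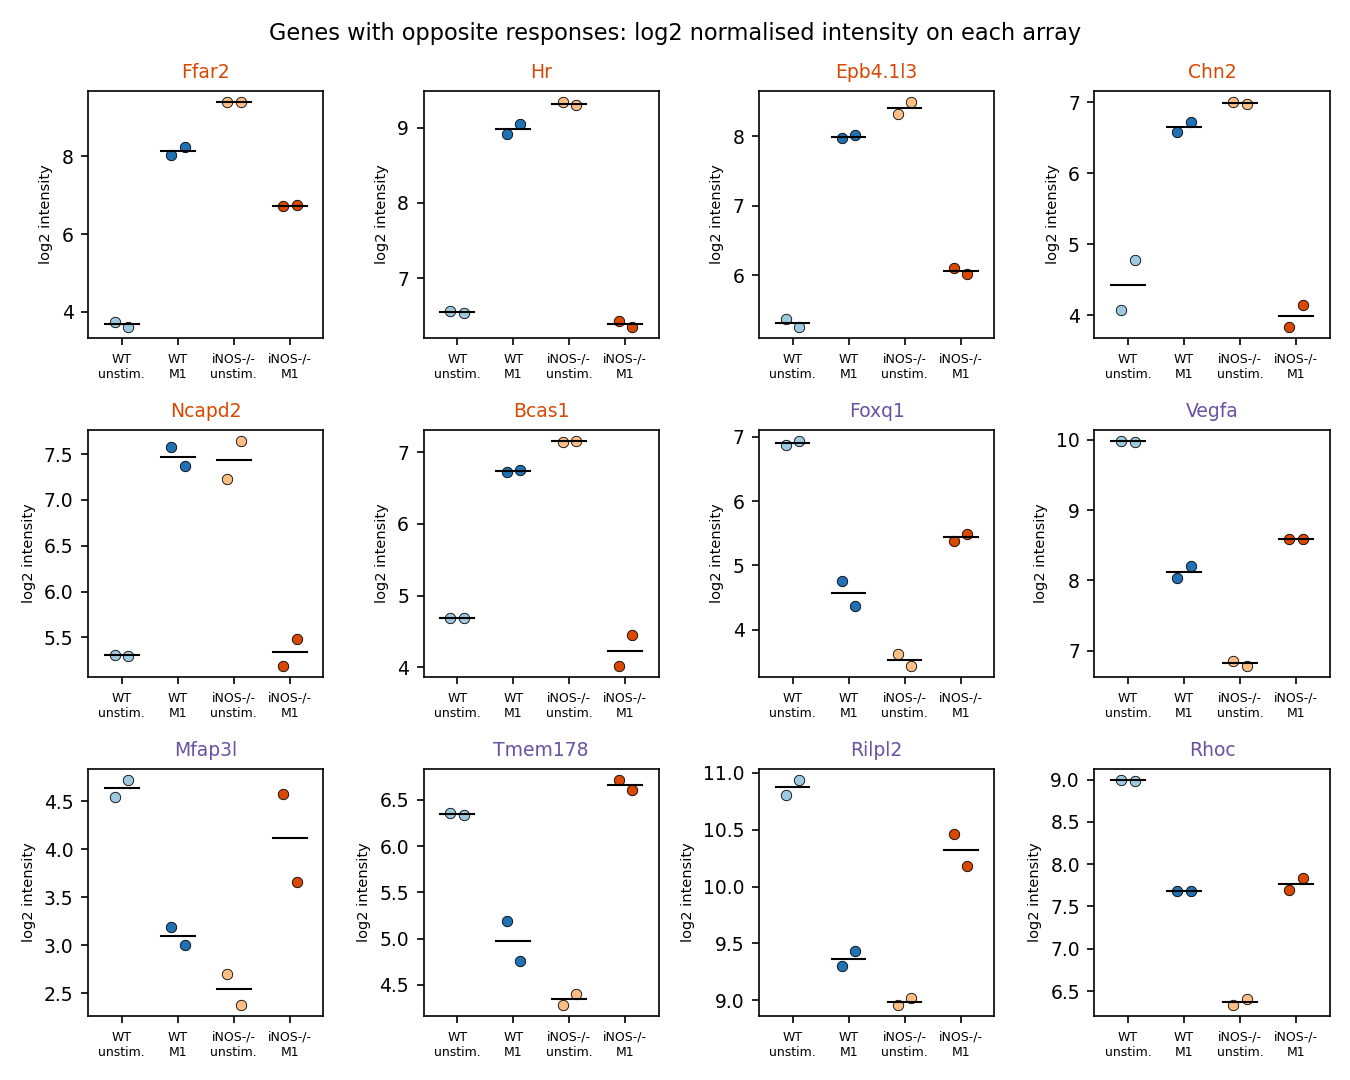
Log2 normalised intensity (vertical axis, its range set for each gene) of 12 genes with opposite responses in the 4 groups. Points are arrays, 2 per group, and horizontal lines are group means. Genes with orange titles rose in WT and fell in iNOS-/- cells, from Ffar2 (3.68 to 8.13 in WT and 9.40 to 6.73 in iNOS-/-) to Bcas1, and genes with purple titles did the reverse, from Foxq1 to Rhoc.

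In the other direction, Vegfa, the main angiogenic growth factor, fell in WT and rose in iNOS-/- cells. Its values were 9.99 and 9.97 in WT unstimulated, 8.04 and 8.21 in WT M1, 6.85 and 6.79 in iNOS-/- unstimulated and 8.59 and 8.59 in iNOS-/- M1 cells. The groups did not overlap, and unstimulated WT cells were the highest and unstimulated iNOS-/- cells the lowest. The change was 3.62-fold down in WT and 3.42-fold up in iNOS-/-, a difference of 3.63 ± 0.13 (adjusted p = 0.0001532, limma). Foxq1, a forkhead transcription factor, had 6.88 and 6.94, then 4.76 and 4.37, in WT, and 3.61 and 3.44, then 5.39 and 5.49, in iNOS-/- cells. It too was highest in unstimulated WT and lowest in unstimulated iNOS-/- cells (difference 4.26 ± 0.22, adjusted p = 0.0003173). Tmem178, a membrane protein that restrains calcium signals in osteoclasts, differed by 3.69, Rilpl2, a Rab-binding adaptor, by 2.84, and Rhoc, a small GTPase of the cytoskeleton, by 2.70. Mfap3l, a membrane-associated protein, differed by 3.11 but lay near the background, with log2 values of 2.38 to 4.73, and its difference fell to 0.921 and was no longer called (adjusted p = 0.06102) when intensities under 16 were set to 16. The 438 probes of this kind detected on all arrays had medians of 8.74 and 8.00 in WT and 7.89 and 8.70 in iNOS-/- cells.

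Of the gene lists examined, mitosis had the largest share of members with opposite responses. Of 30 mitosis and spindle genes tested, 28 had a lower response in iNOS-/- cells and 0 a higher one, with a median difference of -3.48 against 0.01 over all genes. As many as 25 of the 30 (83.3%) rose in WT and fell in iNOS-/-, where 5.03% of all genes did so, and they made up 4.89% of the 511 genes of that kind. The largest differences among members detected on all 8 arrays were those of Kif2c, a microtubule depolymerase (-4.40), Ncapd2 (-4.27), Kif11, the motor that separates spindle poles (-4.05), and Anln, a scaffold of the cleavage furrow (-3.98). Plk1, a mitotic kinase, differed by -3.91, Birc5, the survivin subunit of the chromosomal passenger complex, by -3.92, Ccnb1, the cyclin of mitotic entry, by -2.65, and Foxm1, a transcription factor of the mitotic genes, by -2.56. The members split the 4 groups into 2 high and 2 low: 28 of 30 genes were higher in unstimulated iNOS-/- than in unstimulated WT cells, 27 were lower in iNOS-/- M1 than in WT M1 cells, and unstimulated iNOS-/- cells differed from WT M1 cells by a median of only 0.16. In RNA from whole cultures, fewer dividing cells and less of these RNAs per cell cannot be told apart.

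DNA replication genes moved alike in direction but fewer of them crossed. Of 40 tested, 37 had a lower and 1 a higher response in iNOS-/- cells (median difference -2.07), and 16 (40%) rose in WT and fell in iNOS-/-. Tk1, the salvage enzyme thymidine kinase, rose by 1.60 in WT and fell by 2.71 in iNOS-/- cells. Mcm2, of the replicative helicase, differed by -3.65, Pold1, the catalytic subunit of DNA polymerase delta, by -3.58, and Rrm2, of ribonucleotide reductase, by -3.30. A further 11 members changed in iNOS-/- cells alone, such as E2f1, which had a response of 0.27 in WT that was not called and fell by 1.92 in iNOS-/-, and E2f2, with -0.02 and -3.37. E2f1 and E2f2 encode transcription factors of the G1 to S transition. Of 28 genes of ribosome biogenesis, 13 had a lower and 4 a higher response in iNOS-/- cells (median -0.66), whereas among 51 cytosolic ribosomal protein genes 4 were higher, 3 lower and 44 not called.

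Because these members moved together, their promoters are shown from RefSeq (build GRCm38.p6), in windows of 300 bases that lie mostly upstream of each gene's start. Ncapd2 (chr6:125191537-125191836, minus strand) and Kif11 (chr19:37376132-37376431, plus strand) were the 2 mitosis genes with the most negative difference among the called members that were detected on all 8 arrays and had 1 listed promoter holding both motifs sought for this list. Capitals mark the CCAAT box (CCAAT) and the cell cycle homology region (TTTGAA), on either strand, so that they also appear as ATTGG and TTCAAA.
Ncapd2: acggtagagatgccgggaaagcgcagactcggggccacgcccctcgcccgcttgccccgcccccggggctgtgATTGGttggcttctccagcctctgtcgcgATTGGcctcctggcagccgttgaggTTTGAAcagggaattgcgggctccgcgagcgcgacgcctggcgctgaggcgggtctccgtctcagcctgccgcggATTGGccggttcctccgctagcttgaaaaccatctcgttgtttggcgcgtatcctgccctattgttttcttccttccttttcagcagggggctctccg
Kif11: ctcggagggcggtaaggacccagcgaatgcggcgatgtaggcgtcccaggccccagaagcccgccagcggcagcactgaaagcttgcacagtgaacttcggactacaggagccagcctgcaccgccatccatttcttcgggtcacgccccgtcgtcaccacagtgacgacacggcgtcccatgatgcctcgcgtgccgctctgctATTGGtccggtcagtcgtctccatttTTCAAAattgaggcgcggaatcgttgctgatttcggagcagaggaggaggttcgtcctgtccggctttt
Pold1 (chr7:44548766-44549065, minus strand) was chosen in the same way among replication genes for the E2F site TTCCCGC, in capitals as GCGGGAA where it lies on the other strand.
Pold1: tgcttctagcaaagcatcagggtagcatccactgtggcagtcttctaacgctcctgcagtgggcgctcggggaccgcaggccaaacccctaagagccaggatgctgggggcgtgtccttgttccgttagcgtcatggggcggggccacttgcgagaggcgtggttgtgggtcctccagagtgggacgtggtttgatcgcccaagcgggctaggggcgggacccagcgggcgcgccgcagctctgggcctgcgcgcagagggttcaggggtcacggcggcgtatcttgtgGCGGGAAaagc
Of the 7753 tested genes whose promoter was matched by symbol, 43.2% held CCAAT, 14.9% TTTGAA and 9.36% TTCCCGC. Among 26 mitosis genes with a promoter the shares were 76.9%, 84.6% and 0%, and among 35 replication genes 57.1%, 17.1% and 34.3%. Over the 404 matched genes that rose in WT and fell in iNOS-/-, they were 49.8%, 23.5% and 11.4%. These are matches of letters, given as a description.

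Genes that M1 stimulation raised in both genotypes rose further in iNOS-/- cells more often than less far, 546 probes against 157. Ccrl2, an atypical chemokine receptor that presents chemerin, had the largest such difference among named genes. It measured 9.04 and 9.03 in WT unstimulated, 9.71 and 9.85 in WT M1, 6.78 and 6.59 in iNOS-/- unstimulated and 11.52 and 11.58 in iNOS-/- M1 cells. The iNOS-/- arrays were both the lowest and the highest, so that Ccrl2 rose 1.68-fold in WT and 29.2-fold in iNOS-/- (difference 4.12 ± 0.15, adjusted p = 0.0001532, limma). Dusp2, a phosphatase of MAP kinases, rose 4.78-fold in WT and 69.8-fold in iNOS-/-, from 4.60 and 4.72 to 6.81 and 7.02 in WT and from 3.51 and 4.07 to 9.87 and 9.96 in iNOS-/- cells. Indo (now Ido1), which starts tryptophan breakdown, went from 5.25 and 5.19 to 6.81 and 7.01 in WT and from 4.87 and 4.66 to 10.05 and 10.04 in iNOS-/- cells. For Dusp2 and Indo the unstimulated levels of the genotypes lay within 1 log2 unit (gaps of -0.87 and -0.46), and the M1 levels were 3.0 and 3.13 higher in iNOS-/- cells. Slamf7, a receptor of the SLAM family on leukocytes, and Sdcbp2, a PDZ adaptor of the syntenin family, rose 1.74-fold each in WT, and 16.3-fold and 16.7-fold in iNOS-/- cells.

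**Figure D3:**
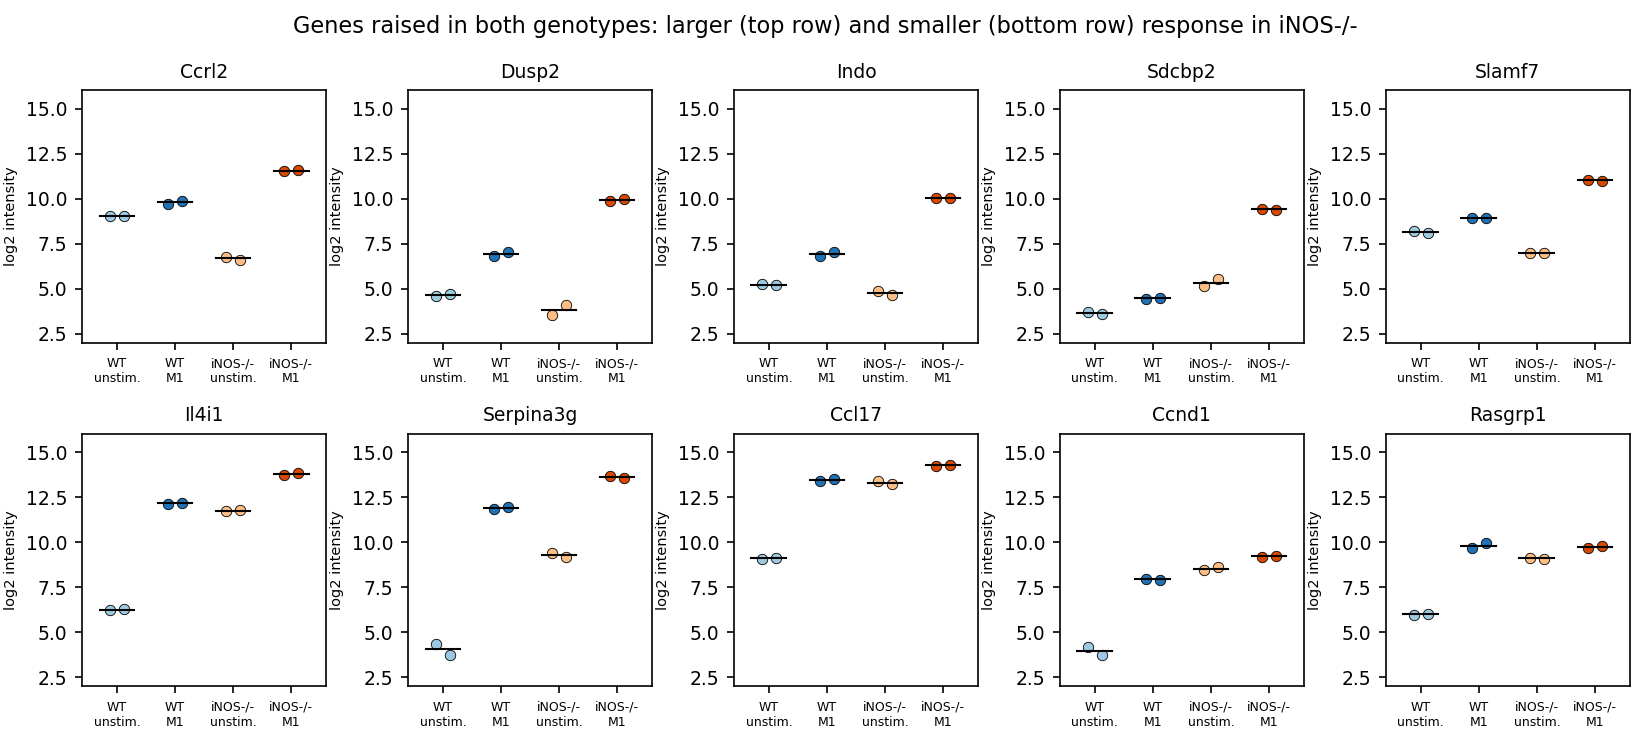
Log2 normalised intensity (vertical axis, 2 to 16 in all panels) of genes that rose in both genotypes, by group. Points are arrays, 2 per group, and lines are group means. In the top row the rise was larger in iNOS-/- cells, as for Ccrl2 (from 6.68 to 11.55, against 9.03 to 9.78 in WT), and in the bottom row it was smaller, as for Il4i1 (from 11.73 to 13.77, against 6.25 to 12.15 in WT).

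Of the probes that rose less in iNOS-/- cells, 110 were detected on all 8 arrays. Their median unstimulated level was 8.14 in iNOS-/- cells and 5.79 in WT cells. The unstimulated iNOS-/- level is subtracted in the difference, so this link is partly built into the contrast. Il4i1, a secreted amino acid oxidase, measured 6.20 and 6.29 in WT unstimulated, 12.13 and 12.17 in WT M1, 11.70 and 11.75 in iNOS-/- unstimulated and 13.71 and 13.84 in iNOS-/- M1 cells. Its rise was 59.9-fold in WT and 4.13-fold in iNOS-/- (difference -3.86 ± 0.13, adjusted p = 0.0001532, limma), yet both iNOS-/- M1 arrays were the highest of all. Ccl17, a chemokine for Ccr4-bearing T cells, rose from 9.05 and 9.13 to 13.40 and 13.48 in WT and from 13.36 and 13.21 to 14.24 and 14.28 in iNOS-/- cells. Serpina3g, a serine protease inhibitor, rose 231-fold and 20-fold, Ccnd1, the G1 cyclin D1, 15.8-fold and 1.63-fold, and Rasgrp1, a Ras activator, 14.1-fold and 1.54-fold. In all 5 genes unstimulated iNOS-/- cells exceeded unstimulated WT cells, by 3.12 to 5.48, and 128 of the 157 probes of this kind had a gap of the same sign in both conditions.

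For these genes the sign of the difference depends on the scale. On the unlogged scale of scaled intensity, Il4i1 gained 4469 units in WT and 10624 in iNOS-/- cells, and Serpina3g 3822 and 11793, a larger step in iNOS-/-. Ccl17 gained 10588 and 9585, and Rasgrp1 836 and 295, a smaller step in iNOS-/-. Only 61 of the 157 probes (38.9%) kept the sign of their difference without the logarithm, and of the 236 that fell more deeply in iNOS-/- cells 159 (67.4%) did. For probes with opposite responses and for those that rose further in iNOS-/- cells, the sign was the same on both scales for 648 of 648, 463 of 463 and 546 of 546. Over all called probes it was the same for 5621 of 5815 (96.7%).

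Interferon-stimulated genes were mostly of the larger kind. Of 36 tested, 24 had a more positive response in iNOS-/- cells and 1 a more negative one (median difference 1.20, background 21.6% and 22%). Among the 36, 23 (63.9%) rose in both genotypes and further in iNOS-/- cells. Rsad2, the antiviral enzyme viperin, rose by 3.58 in WT and 5.80 in iNOS-/- cells, a difference of 2.22. Ifih1, the RNA sensor MDA5, differed by 2.98, Ddx58, the RNA sensor RIG-I, by 1.72, and Oas1a, which makes the activator of RNase L, by 2.19. Gbp5, a guanylate-binding protein of inflammasome assembly, was the one member with a smaller response (-0.80), and Gbp2 (-0.13, 95% interval -0.56 to 0.30) and Mx1 (-0.82) were not called. Among regulators, Irf1 (2.46), Stat3 (1.69), Irf8 (1.19) and Irf9 (0.77) rose further in iNOS-/- cells. Irf5, a factor of M1 cytokine genes, rose less (1.08 in WT, 0.53 in iNOS-/-, adjusted p = 0.02671), as did Jak2 (-1.36) and the feedback inhibitor Cish (-1.50), and Irf4 rose by 1.62 in WT and had -0.26, not called, in iNOS-/- cells. Of 19 genes of the JAK-STAT and IRF list 8 had a more positive and 5 a more negative response (median 0.08). The call for Irf5 was lost without any single array except WT M1 replicate 2 or iNOS-/- unstimulated replicate 2, with adjusted p up to 0.08083, and its size was under 2-fold.

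The promoters of the 2 interferon-stimulated genes with the largest differences, under the same rule, are given for the interferon response core GAAANNGAA, in capitals on either strand, for Ifih1 (chr2:62646206-62646505, minus strand) and Rsad2 (chr12:26456403-26456702, minus strand).
Ifih1: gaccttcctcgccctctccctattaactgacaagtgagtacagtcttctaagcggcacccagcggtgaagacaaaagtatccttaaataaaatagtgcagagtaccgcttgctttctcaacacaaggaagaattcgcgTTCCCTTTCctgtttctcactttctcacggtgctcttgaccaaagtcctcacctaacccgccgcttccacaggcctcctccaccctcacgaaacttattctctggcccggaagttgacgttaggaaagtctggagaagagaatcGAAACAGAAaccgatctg
Rsad2: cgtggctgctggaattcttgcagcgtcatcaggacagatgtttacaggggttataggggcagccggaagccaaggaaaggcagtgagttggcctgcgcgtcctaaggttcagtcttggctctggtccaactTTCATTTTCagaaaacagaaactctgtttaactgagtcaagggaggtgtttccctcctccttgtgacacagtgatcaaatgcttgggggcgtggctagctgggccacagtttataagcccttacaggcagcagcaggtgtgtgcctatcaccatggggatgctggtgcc
The core was held by 73.1% of 26 interferon-stimulated genes with a promoter, 9.13% of the 7753 tested genes, 19.0% of 290 genes that rose further in iNOS-/- cells and 13.6% of 88 that rose less. It was held by 9.16% of genes that rose in WT and fell in iNOS-/-.

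Genes of the NF-kB pathway followed the same direction. Of 17 subunits, inhibitors and feedback genes, 10 had a larger and 1 a smaller response in iNOS-/- cells (median 0.84). Zc3h12a, the RNase regnase-1 (2.61), Peli1, a ubiquitin ligase (2.31), Tnfaip3, the A20 inhibitor of NF-kB (1.83), and Rel, a subunit (1.24), rose further, and Nfkbie, an inhibitor of the IkB family, rose less (-1.07). Among 19 M1 cytokines, 9 had a larger and 1 a smaller response (median 1.26), and 9 were not called. Only 8 of the 19 were detected on all 8 arrays, with a median of 1.08 among those. Il1rn, the antagonist of interleukin 1, rose by 1.90 in WT and 4.15 in iNOS-/- cells, Il15 by 1.15 and 2.88, and Il1a by 4.99 and 6.22, while Il1b rose by 5.88 and 4.80, a smaller response. For Tnf the responses were 6.27 and 6.4, and the difference of 0.13 had a 95% interval of -0.32 to 0.59. Thus Tnf intensity was 12.62 and 12.56 in WT M1 and 13.58 and 13.82 in iNOS-/- M1 cells, with 6.42 and 6.22 against 7.24 and 7.36 before stimulation, so the iNOS-/- arrays were higher in both conditions.

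Several cytokines of the M1 program were undetected before stimulation in WT, where their response is known only as a bound. Il12a, the p35 subunit of interleukin 12, was raised at least 88.2-fold in WT, with M1 values of 8.88 and 9.04 in WT and 11.51 and 11.50 in iNOS-/- cells, and both WT unstimulated arrays at the floor. Its difference of 0.43 was therefore not well defined (adjusted p = 0.557, limma): it was 2.92 with WT unstimulated cells set at their bound, and was called at 1.82 with neqc, a background correction with quantile normalization, at 2.54 with a floor of 16, and at 1.01 without iNOS-/- unstimulated replicate 1. Il12b, the p40 subunit, was undetected in both unstimulated groups and reached 3.55 and 2.78 in WT M1 and 6.66 and 6.17 in iNOS-/- M1 cells. Its difference was called (2.18 ± 0.60, adjusted p = 0.03655), near the background, and the call was lost without any single array except WT M1 replicate 1 or iNOS-/- unstimulated replicate 2, with adjusted p up to 0.1043, and also without a detection filter (0.08821) and with a replicate block (0.06613). Il6 was raised at least 201-fold in WT, and its difference of -0.80 was not called (adjusted p = 0.06405, limma). The sign for Il6 depended on the processing: it was called at 0.72 with neqc and 1.86 with a floor of 16, and at -1.17 with quantile normalization, -0.80 with an intensity trend and -1.03 without WT unstimulated replicate 1. The M1 chemokine Cxcl9 (-1.22) was not called, but was at 1.02 with a floor of 16 and at -2.10 without WT unstimulated replicate 2. Cxcl10 (-0.52, adjusted p = 0.07872) was called in 4 of 18 alternatives, with differences from -0.85 to -0.52. In M1 cells Il6 had a mean of 12.04 in iNOS-/- against 10.15 in WT, and Cxcl10 12.74 against 11.76. Both gaps were called (adjusted p = 0.001074 and 0.003012, limma). Cxcl9 had 14.45 against 13.39, a gap that was not called (adjusted p = 0.1713, limma). Il10 was detected in iNOS-/- M1 cells only, where it rose at least 3.47-fold. Il1r2, the decoy receptor of interleukin 1, had a called difference of -5.0: it rose by 4.44 in WT, and its change of -0.56 in iNOS-/- cells was not called. The WT rise starts near the background, at 2.95 and 1.85, with detection on 1 of the 2 WT unstimulated arrays. Il1r1, detected on 5 of the 8 arrays, had a difference of -0.97 that was not called (adjusted p = 0.5142, limma).

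Chemokines were split. Of 18 tested, 7 had a more positive and 2 a more negative response in iNOS-/- cells (median 0.60, but 0.05 with quantile normalization). Ccl3 (2.09), Cxcl16 (1.16), Ccl5 (1.04) and Cxcl1 (0.86) were on the positive side and Ccl17 (-3.38) and Ccl2 (-1.17) on the negative. Cxcl4, or platelet factor 4, fell by 2.11 in WT and had 0.10, not called, in iNOS-/-. Of 27 pattern recognition genes, 13 had a more positive and 3 a more negative response (median 0.72, or 0.53 to 1.23 over the alternatives). Tlr7, an endosomal RNA receptor, Ly96, the MD-2 partner of Tlr4, and Clec4d, a C-type lectin, fell in WT by 1.03, 1.0 and 1.05 and rose in iNOS-/- cells by 1.08, 0.72 and 0.86. Cd14, the LPS coreceptor, had 0.39, not called, in WT and rose by 2.66 in iNOS-/-, and Tlr4 itself had -0.27, not called, and fell by 1.83.

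**Figure D4:**
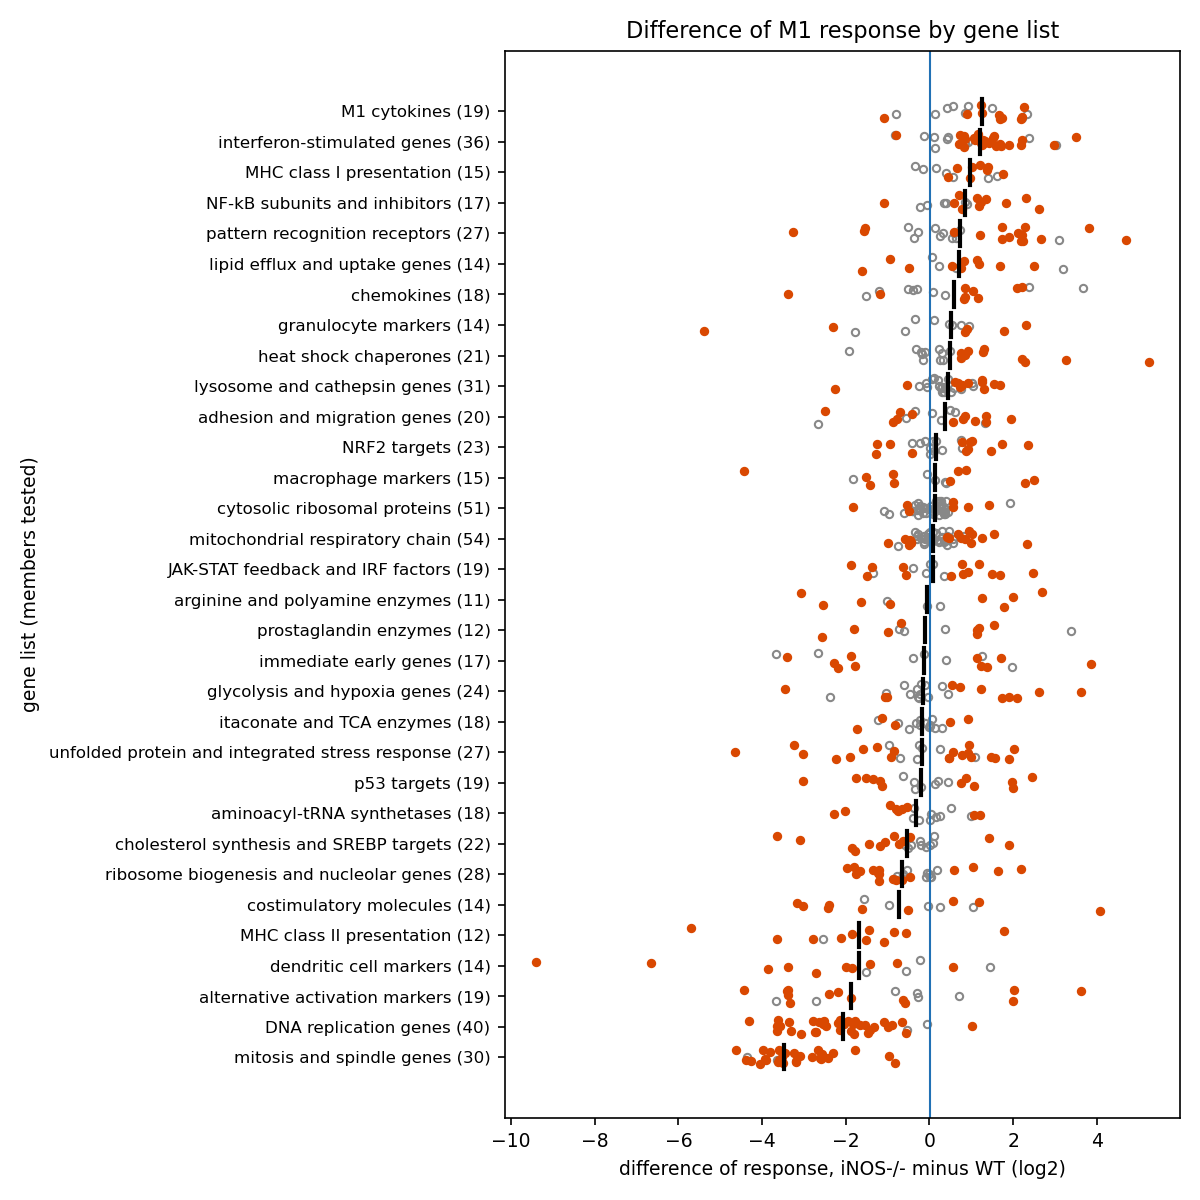
Difference of M1 response, iNOS-/- minus WT (log2, horizontal axis), for the tested members of each gene list with 10 or more of them (vertical axis, number of members in brackets). Filled orange points were called, open grey points were not, black bars are list medians and the blue line is the median of all genes, 0.01. Medians run from -3.48 for mitosis and spindle genes to 1.26 for M1 cytokines.

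Antigen presentation moved apart by class. For MHC class II, 10 of 12 genes had a more negative response in iNOS-/- cells and 1 a more positive one (median -1.69). H2-DMb2, a chain of the peptide exchange factor H2-M, read 2.99 and 3.32 in WT unstimulated, 8.84 and 8.81 in WT M1, 9.13 and 9.09 in iNOS-/- unstimulated and 8.96 and 9.19 in iNOS-/- M1 cells. Only the WT unstimulated arrays were low, and the difference was -5.71 ± 0.21 (adjusted p = 0.0001532, limma). Ciita, the master regulator of class II genes, rose by 3.41 in WT and 0.63 in iNOS-/-, H2-Eb1 by 2.69 and 0.58, H2-Ab1 by 1.85 and 0.42, and Cd74, the invariant chain, by 1.55 and 0.47. Before stimulation 10 of the 12 were higher in iNOS-/- than in WT cells, by a median of 1.71 over the list, and after it 7 were higher and 2 lower. Of 15 MHC class I genes, 8 had a larger and 0 a smaller response (median 0.97), among them H2-T23 (1.77), H2-K1 (1.40), H2-Q7 (1.20) and Tapbp, the peptide loading chaperone tapasin (1.01). Costimulatory molecules had no common direction, 3 more positive and 6 more negative of 14. Their median of -0.74 became 0.37 with undetected members set at their bounds. Cd40, the receptor for CD40 ligand, rose by 8.31 in WT and 5.27 in iNOS-/-, and Cd86 by 2.15 and 2.13, a difference of -0.03 that was not called.

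**Figure D5:**
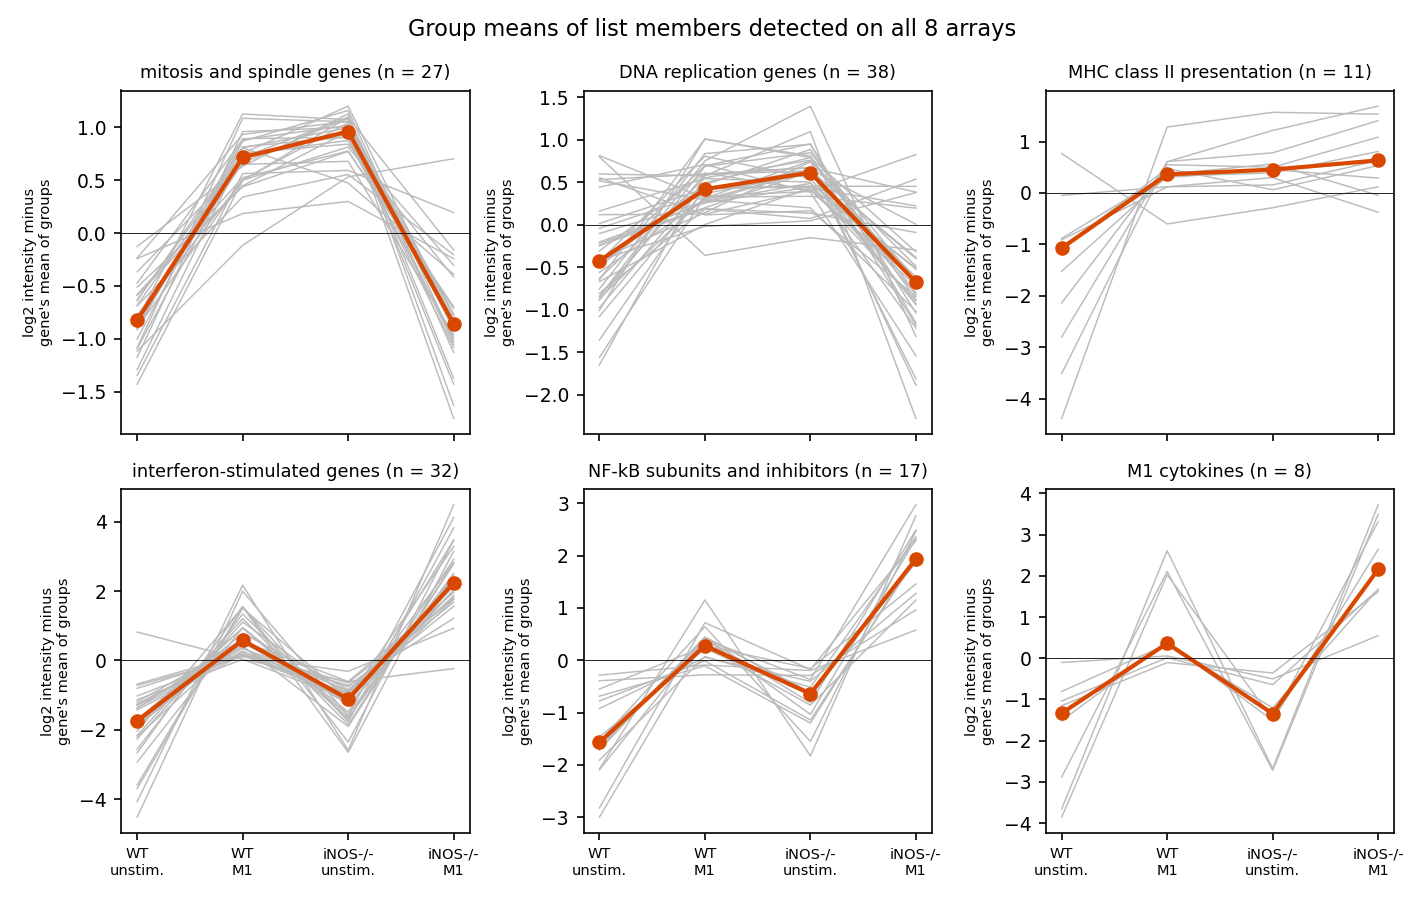
Group means of list members detected on all 8 arrays, as log2 intensity minus the gene's mean over the 4 groups (vertical axis), for 6 gene lists. Grey lines are genes and the orange line is the median. Mitosis and replication genes are high in WT M1 and iNOS-/- unstimulated cells and low in the other 2 groups, MHC class II genes are low in WT unstimulated cells, and the 3 lists of the lower row are highest in iNOS-/- M1 cells.

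Markers of other cells that a GM-CSF culture can hold differed in direction between the lists. The list of dendritic cell markers holds Il4i1 and shares Ccl17, Relb and Cd83 with lists above. Of its 14 tested members, 9 had a more negative and 1 a more positive response in iNOS-/- cells (median -1.69). Their summed scaled intensity was 1220 to 1230 on the WT unstimulated arrays, 18100 to 18900 on the WT M1 arrays, 14900 to 15800 on the iNOS-/- unstimulated arrays and 41100 to 42600 on the iNOS-/- M1 arrays. Ccl17 and Il4i1 carried most of these sums outside the WT unstimulated arrays. Without those 2 genes, left out after their values were seen, the sums of the other 12 were 582 to 627, 2800 to 2840, 1940 to 1960 and 8110 to 8370 in the same order, again lowest in WT unstimulated cells. Before stimulation 11 of the 14 were higher in iNOS-/- than in WT cells, and 0 were called lower. Zbtb46, a transcription factor of conventional dendritic cells, had 5.38 against 2.79. The 2.79 lay near the lowest detected level of the WT unstimulated arrays (2.52 and 2.48). Clec9a was undetected in both iNOS-/- groups, and Cd209a in WT unstimulated and iNOS-/- M1 cells. Of the 14, 2 rose in WT and fell in iNOS-/- cells. Flt3 and Xcr1, which mark dendritic cell precursors and a conventional subset, did not pass the detection filter, nor did Batf3. Summed granulocyte markers (14 tested) ran from 1480 to 1500, 2210 to 2300, 2040 to 2100 and 7260 to 7700 in the same order, and macrophage markers (15 tested) from 49300 to 49700, 45700 to 48400, 35700 to 36100 and 47100 to 48400. Of 7 mast cell and basophil markers, 4 had a smaller and 0 a larger response, and only 1 was detected on all 8 arrays. Their sums were 57.2 to 59.2, 522 to 562, 430 to 431 and 2200 to 2290 in the same order. The median log2 intensities were 2.15, 3.48, 3.58 and 2.93, so the sums follow the brightest members and not the list. Kit and Mcpt8 did not pass the filter. Lymphocyte markers other than Il7r and Lck, among them Cd3e and Ms4a1, did not pass it either, and the sum of those 2 was 2700 to 2750, 817 to 892, 882 to 891 and 1290 to 1330. The part of other cells in the differences above was not tested.

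Some genes responded in WT alone. Asb2, a ubiquitin ligase subunit, was 3.11 and 2.55 in WT unstimulated cells and 9.80 and 9.76 in WT M1, against 9.83 and 9.84, then 9.32 and 9.37, in iNOS-/- cells. As with H2-DMb2, the WT unstimulated arrays alone were low, and the difference was -7.44 ± 0.27 (adjusted p = 0.0001532, limma). Amica1 (now Jaml), an adhesion molecule of leukocytes, had the same form, 3.38 and 4.49 rising to 9.01 and 9.12 in WT, and a difference of -5.52. In the opposite direction, Apoe, the apolipoprotein of lipid efflux, fell from 11.49 and 11.57 to 8.82 and 8.96 in WT and stayed at 6.87 and 6.84, then 6.62 and 6.79, in iNOS-/- cells. For Apoe both iNOS-/- groups lay below both WT groups, and the difference of 2.49 ± 0.14 was called (adjusted p = 0.0003984). Eno2, a glycolytic enolase, fell 5.04-fold in WT, and Fbxo30, a ubiquitin ligase subunit, 3.25-fold, and neither change was called in iNOS-/-.

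Genes that responded in iNOS-/- cells alone were the most numerous kind. Marco, a scavenger receptor for bacteria, was 5.08 and 4.88, then 5.11 and 4.99, in WT, and rose from 3.73 and 3.45 to 7.53 and 7.44 in iNOS-/- cells. The WT arrays of both conditions overlapped, and the difference was 3.82 ± 0.19 (adjusted p = 0.0003002, limma). Nfe2, a transcription factor of the erythroid and megakaryocyte lines, read 8.43 and 8.5, then 8.43 and 8.42, in WT and 8.49 and 8.48, then 4.81 and 4.91, in iNOS-/- cells. Only the iNOS-/- M1 arrays were low for Nfe2, a 12.3-fold fall (difference -3.59 ± 0.12, adjusted p = 0.0001532). Lox, the collagen crosslinking enzyme, and Ppfia3, a scaffold of the liprin family, rose 11.4-fold and 21.2-fold, and Tspan32, a tetraspanin, and Lbh, a transcriptional regulator, fell 11.6-fold and 9.04-fold, in iNOS-/- cells alone.

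Falls in both genotypes were more often deeper than shallower in iNOS-/- cells, 236 probes against 54. Aatk, a kinase, fell 1.65-fold in WT and 32.1-fold in iNOS-/- cells, from 9.03 and 9.12 to 8.33 and 8.38 and from 8.43 and 8.48 to 3.14 and 3.75. St6gal1, a sialyltransferase, fell 2.20-fold and 17.4-fold, and Tbc1d2, a GTPase-activating protein for Rab proteins, 1.41-fold and 13-fold. The iNOS-/- M1 arrays were the lowest for these 3 genes. Mamdc2, a secreted proteoglycan, Nr1d2, a nuclear receptor of the clock, and Pfn2, an actin-binding profilin, fell further in WT (9.73-fold, 8.29-fold and 5.98-fold) than in iNOS-/- cells (2.02-fold, 2.37-fold and 1.82-fold), with iNOS-/- cells lower than WT cells already before stimulation.

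Of 22 cholesterol synthesis genes, 11 had a more negative and 2 a more positive response in iNOS-/- cells (median -0.55); Mvd, of the mevalonate pathway, had -0.24, not called, in WT and fell by 2.09 in iNOS-/-, and Srebf2, the regulator of the pathway, rose by 1.12 in WT and fell by 0.32 in iNOS-/-. Of 21 heat shock chaperones, 10 were more positive and 0 more negative (median 0.49), and Bag3, a cochaperone, fell by 0.79 in WT and rose by 0.52 in iNOS-/- cells. Among 19 markers of alternative activation, 3 were more positive and 10 more negative (median -1.88, or -0.84 at bounds). Arg1, which breaks down arginine, Chi3l3, a chitinase-like lectin, and Tgm2, a transglutaminase, fell in WT and rose in iNOS-/-, with differences of 2.00, 2.01 and 3.61, while the lectins Mgl1 (-3.32) and Mgl2 (-3.38) did the reverse. Klf4 had -0.12, not called, in WT and fell by 3.52 in iNOS-/-. In the mitochondrial respiratory chain 11 of 54 were more positive, 6 more negative and 37 not called (median 0.09).

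Where a gene had several probes, they mostly moved alike. Of 1744 genes with at least 2 probes detected on all 8 arrays, 684 had at least 2 called probes, and in 673 of these all called probes had the same sign. The remaining 11 had both signs, and in Ctnnb1 (beta-catenin) 1 probe differed by -2.69 and 2 others by 1.55 and 1.02, in Pkib, an inhibitor of protein kinase A, the probes differed by 1.04 and -1.07, and in Tubb2b, a tubulin, by 0.98 and -1.32. For these 3 genes the value of a gene depends on the probe.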

How the data were processed

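The series holds 8 single-colour Illumina bead arrays. The deposited table gives, for each probe on each array, a summary intensity with its detection p-value, which the authors exported from GenomeStudio without normalising, and the submitters' notes also name limma 3.14.4. The file header names no background subtraction, while the methods of the study describe one for the array data. Undetected probes lie around 0, and 25.2% to 27.2% of the deposited intensities on each array were below 0, as they would be after one. Intensities were scaled by rank-invariant probes (ranks 0.5 to 0.9, rank difference under 0.05, a line without intercept, fitted robustly by MASS 7.3.60.0.1) against the mean array. Values under 1 were set to 1, and log2 values were taken from these deposited intensities. A one-way model over the 4 groups was fitted in limma 3.58.1 (R 4.3.3) to the 13868 of 25697 probes that 2 or more arrays detected (deposited p-value under 0.05), and the difference of responses was tested with Benjamini-Hochberg adjustment. Named genes had to be called and detected on all 8 arrays. The 6 genes each way with the strongest opposite movement were taken, then 5, 3 and 3 of the other kinds by size of difference, besides members of 34 gene lists, genes named by the study and 3 genes with discordant probes. Members and lists were chosen with earlier results of these data known. Where a gene was undetected in a group, its response is a bound. The number of arrays limits the precision. Same-numbered arrays showed no shared signal: their deviations correlated between -0.034 and 0.027. This cannot show whether they came from the same mouse, culture or chip. Some items are not reported here. The scripts were tested on simulated data.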

Additional observations from a re-analysis of the deposited data

Results flagged for a closer look

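The contrast itself is a test of whether the M1 response differs between genotypes, and it called 5815 probes (limma, adjusted p under 0.05). In 648 of them the response was upward in WT and downward in iNOS-/- cells, and in 463 it was downward in WT and upward in iNOS-/- cells. The 12 genes with the strongest opposite movement had tested differences, iNOS-/- minus WT on the log2 scale, of -7.12 for Ffar2, -5.36 for Hr, -5.02 for Epb4.1l3, -5.23 for Chn2, -4.27 for Ncapd2 and -4.98 for Bcas1. On the positive side they were 4.26 for Foxq1, 3.63 for Vegfa, 3.11 for Mfap3l, 3.69 for Tmem178, 2.84 for Rilpl2 and 2.70 for Rhoc. Groups of 2 arrays are too small for a search for single arrays far from the rest.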

How the results depend on the processing

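Among 18 alternatives, the total of 5815 called probes ran from 3873, with a 2-fold minimum added, to 7078 with neqc. It was 5832 with quantile normalization, 6520 with an intercept in the scaling line, 5969 with a floor of 16, 6743 with an intensity trend and 4512 to 5265 without 1 array. The intercept moved the median difference of all probes from 0.01 to 0.29, and the share of called probes on the positive side from 49.6% to 57.7%. The 2-fold minimum left 1763 probes on the positive side, 604 of 993 that moved the same way in both genotypes, 359 raised further, 104 raised less, 2161 called in 1 genotype, 1621 in iNOS-/- alone and 540 in WT alone. On the unlogged scale 61 of 157 raised less kept their sign. Without 1 array, opposite responses numbered 670 to 1010, raised in WT and lowered in iNOS-/- 422 to 658, lowered in WT and raised in iNOS-/- 232 to 352, the same direction in both 632 to 857, raised further 348 to 453, raised less 101 to 180, WT alone 646 to 1012, and gaps that turned sign 705 to 1088. These fits hold 1 array in one group, which is assumed to vary like the others, and they rest on fewer arrays by construction. With the replicate block the total was 5314 and opposite responses 912, and it moved none of the summary counts by more than 1.5 times. Of the 1111 probes with opposite responses, 606 to 836 kept their kind without 1 array, 838 with quantile normalization and 895 with neqc. Called probes that took the other sign numbered 21 with neqc, 4 with the intercept and 38 with the floor of 16.

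The difference for Il6 turned to 0.717 with neqc and 1.856 with the floor of 16, and that for Cxcl9 to 1.018 with the floor of 16, each called there with the turned sign. Both were undetected on at least 1 unstimulated WT array, and the cause was not tested. Of the 40 genes taken by size, Mfap3l alone lost its call, with the floor of 16. Medians of the mitosis (-3.48 to -2.75), replication (-2.12 to -1.57), interferon (0.89 to 1.27) and MHC class II (-2.28 to -1.47) lists kept their sign in all 18 alternatives, while that of the costimulatory list ran from -0.86 to 0.70, that of ribosomal proteins from -0.45 to 0.15, that of lysosome genes from -0.09 to 0.51, that of the respiratory chain from -0.35 to 0.17, that of the JAK-STAT and IRF list from -0.05 to 0.52, that of alternative activation markers from -2.05 to -0.28 and that of chemokines from 0.05 to 0.83.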

Other observations

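Lists not described above gave these counts of more positive and more negative responses in iNOS-/- cells. Lysosome and cathepsin genes had 10 and 2 of 31 (median 0.44, or -0.09 with quantile normalization), and 22 of the 31 were lower in unstimulated iNOS-/- than in unstimulated WT cells. Genes of lipid efflux and uptake had 7 and 3 of 14 (median 0.70). Glycolysis and hypoxia genes had 8 and 3 of 24, TCA and itaconate enzymes 2 and 3 of 18, NRF2 targets 8 and 4 of 23, and p53 targets 6 and 6 of 19. Genes of the unfolded protein response had 11 and 9 of 27, aminoacyl-tRNA synthetases 2 and 7 of 18, arginine and polyamine enzymes 4 and 4 of 11, and prostaglandin enzymes 4 and 4 of 12. Immediate early genes had 5 and 5 of 17, adhesion and migration genes 7 and 5 of 20, macrophage markers 5 and 5 of 15, granulocyte markers 4 and 2 of 14, and both tested lymphocyte markers, Il7r and Lck, were more positive (2.15 each). Over all genes the counts were 2191 and 2238 of 10163.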
